A study of Mus musculus with 102 samples.

Results

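Of the 82053 H3K4me1 peaks mapped in R1 mouse embryonic stem cells, 4112 lay close to a gene promoter and overlapped no H3K4me3 peak, and these 4112 peaks are described here. They were chosen from the deposited peak tables as the peaks of the proximal group that share not 1 base pair with any of the 34553 H3K4me3 peaks, and they made up 16.7% of the 24672 proximal peaks and 5.01% of all peaks. They are called H3K4me3-free proximal peaks below. For comparison there were 40169 distal peaks without H3K4me3, 20560 proximal peaks with H3K4me3 and 17212 distal peaks with H3K4me3. The choice used positions only, and no measured level or change of H3K4me1 or H3K4me2.

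Monomethylation, dimethylation and trimethylation of lysine 4 of histone H3 (H3K4me1, H3K4me2 and H3K4me3) mark regulatory DNA. H3K4me3 is a hallmark of active CpG-rich promoters and is laid down mainly by the SET1 and MLL1/2 complexes, whereas H3K4me1 without H3K4me3 is the classical signature of enhancers and is written there mainly by MLL3 and MLL4 (KMT2C and KMT2D). A proximal peak with H3K4me1 and no H3K4me3 can lie at the flank of a promoter, at a promoter that is not active in the cell, or at an enhancer that happens to lie near a promoter.

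The mutant line was R1 embryonic stem cells in which both MLL3 and MLL4 carry catalytically inactive SET domains (genotype MLL3/4 double catalytic dead, abbreviated dCD in the labels), and its control was wild-type R1 cells of the same strain, 129SV. Both lines were profiled by chromatin immunoprecipitation with sequencing (ChIP-seq), with 2 libraries per mark and line and 12 in all for the 3 H3K4 marks. A second line, 129/Ola embryonic stem cells with no stated mutation, supplied maps of 17 chromatin proteins, H3K27ac, H3K4me1 and H3K4me3, with 2 libraries for 14 of the proteins, 3 for 2 of them and 1 for SSRP1. The stated aim of the series was to map chromatin regulators that colocalize with H3K4me1 and to see whether they need it. Both R1 lines grew on fibroblast feeders in serum-free medium with LIF, and the share of feeder cells in the chromatin is not stated. The 129/Ola cells were taken off feeders before fixation. The sources used here do not say whether the catalytic-dead line is 1 clone, nor how far from a gene start a proximal peak may lie. The files hold no expression data, so the identity of the cells could not be checked with marker genes, and libraries of MLL3/4 double-knockout cells and their floxed parental cells were not analysed here.

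For each peak the authors deposited 1 fold enrichment per line, so there is no replicate check, the depth behind a value is unknown, and no test between the lines could be made. A peak was called decreased where its fold enrichment in catalytic-dead cells divided by that in wild-type cells was 0.5 or below, and increased where this ratio was 2 or above. These calls match the deposited class of every H3K4me1 and H3K4me2 peak and are a rule of size, not of significance. Shares carry 95% Wilson intervals and medians carry exact binomial intervals, which cover counting error over peaks only, and neighbouring peaks are not independent. Coordinates are those of build mm9.

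At most H3K4me3-free proximal peaks the H3K4me1 level was lower in catalytic-dead than in wild-type cells. The median fold enrichment was 1.92 in catalytic-dead cells and 2.97 in wild-type cells, and the median log2 ratio was -0.70 (95% interval -0.74 to -0.66, n = 4112 peaks). The log2 ratio was below 0 at 3131 peaks, or 76.1% (74.8 to 77.4). In total 1552 peaks, 37.7% (36.3 to 39.2), were called decreased, against 28.4% of all H3K4me1 peaks, and 191 peaks, 4.64% (4.04 to 5.33), were called increased, against 15.2% of all H3K4me1 peaks. The remaining 2369 peaks, 57.6%, were in neither class.

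These values lay between those of the 2 sets that each share 1 of the defining features, and nearer to the distal one. At distal peaks without H3K4me3 the median fold enrichment was 1.53 in catalytic-dead cells and 3.04 in wild-type cells, with a median log2 ratio of -1.04 (-1.05 to -1.03), 51.7% of peaks called decreased and 2.12% called increased. At proximal peaks with H3K4me3 it was 4.65 in catalytic-dead cells and 2.56 in wild-type cells, with a median log2 ratio of 0.93 (0.92 to 0.94), 0.598% called decreased and 43.8% called increased. The median of the H3K4me3-free proximal peaks was thus 0.34 log2 units above that of the distal peaks, with intervals that do not meet, and had the opposite sign to that of proximal peaks with H3K4me3. Distal peaks with H3K4me3, the set that shares neither feature, had a median of 0.30.

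**Figure D1:**
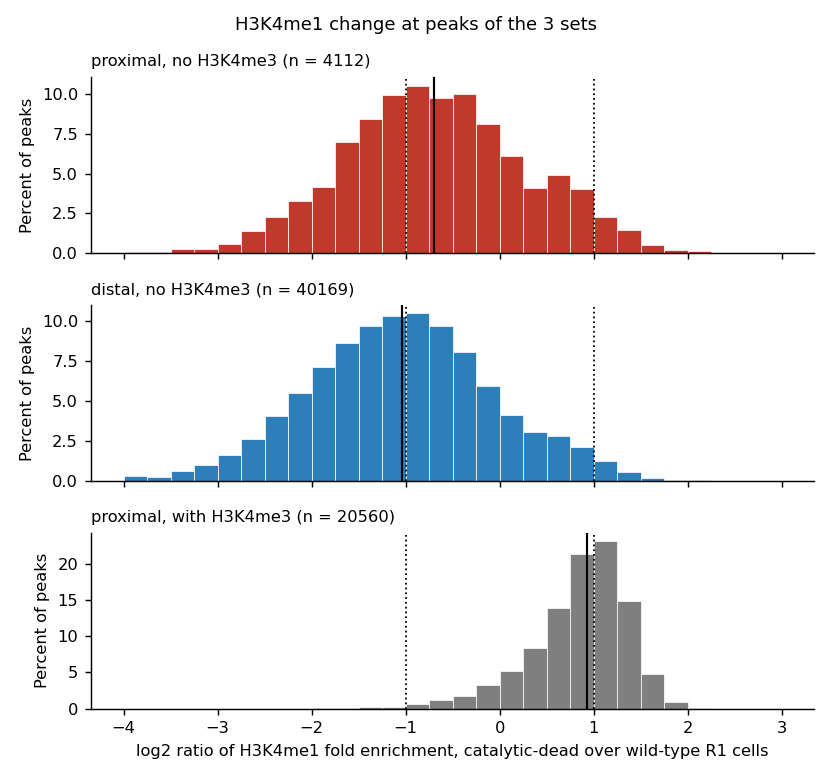
Distribution of the log2 ratio of H3K4me1 fold enrichment, catalytic-dead over wild-type R1 cells, in 3 sets of peaks, as the percent of peaks in bins of 0.25 log2 units (values below -4 are in the lowest bar, and the vertical scale differs between panels). Solid lines are the medians, -0.70, -1.04 and 0.93 from top to bottom, and dotted lines at -1 and 1 are the limits of the calls.

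The split of the calls depended on scaling. As deposited, decreases made up 89.0% of the calls at H3K4me3-free proximal peaks and 96.1% at distal peaks without H3K4me3. When the log2 ratios were centred on the median of all peaks, which lies at -0.21, the share was 78.7% and 91.8%, and after quantile normalization of both lines it was 62.3% and 83.6%. Without the lowest 25% of all peaks by the mean of both lines it was 72.9% and 89.6%. The median of the H3K4me3-free proximal peaks was below 0 and above that of the distal peaks in each of these settings.

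The spread lay mostly in the catalytic-dead values. Across the H3K4me3-free proximal peaks the middle 50% of fold enrichments spanned 1.24 to 2.86 in catalytic-dead cells and 2.68 to 3.29 in wild-type cells, so the ranges of the lines overlapped. The range from the 5th to the 95th percentile was 0.667 to 3.91 in catalytic-dead cells and 1.82 to 3.90 in wild-type cells. The 95th percentiles were thus nearly equal, and the 5th percentile was lower in catalytic-dead cells. The highest single values were 6.37 in catalytic-dead cells and 5.61 in wild-type cells. Across peaks, the catalytic-dead and wild-type values had a Spearman's rho of -0.31 (n = 4112, all from the same libraries). The rho was -0.19 at distal peaks without H3K4me3 and 0.044 at proximal peaks with H3K4me3. An H3K4me1 peak can have been called in either line. A low value in 1 line can then come with a high value in the other through the peak calling, so the negative rho is no independent relation. Peak width went with the wild-type value (rho 0.32) and hardly with the catalytic-dead value (rho 0.013).

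**Figure D2:**
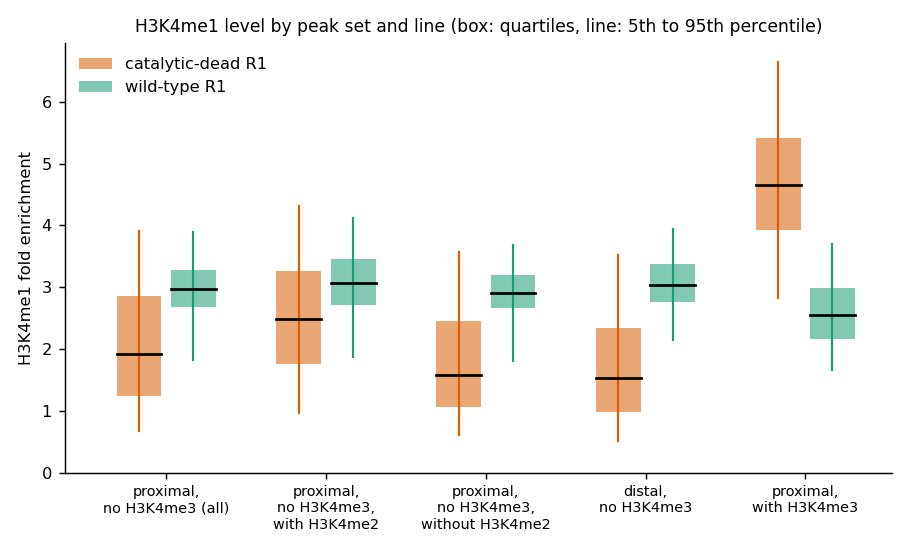
H3K4me1 fold enrichment in catalytic-dead (orange) and wild-type (green) R1 cells by peak set. Boxes span the quartiles, black bars are medians and thin lines run from the 5th to the 95th percentile of peaks, with no replicate error. At H3K4me3-free proximal peaks the medians are 1.92 in catalytic-dead and 2.97 in wild-type cells, and at proximal peaks with H3K4me3 they are 4.65 and 2.56.

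Sorted into 5 classes by the wild-type level, whose limits were set over proximal and distal peaks without H3K4me3 together, the H3K4me3-free proximal peaks were higher in catalytic-dead cells only in the lowest class. There the median fold enrichment was 3.03 in catalytic-dead cells and 2.37 in wild-type cells (n = 1047), 190 of the 191 increases fell in this class, and 15.2% were called decreased. In the highest class, above a wild-type fold enrichment of 3.45, the median was 1.75 in catalytic-dead cells and 3.75 in wild-type cells (n = 671), and 57.5% were called decreased. The wild-type value is part of the ratio, so this order is a description of both values and no independent relation. In the classes above the lowest the catalytic-dead medians ran only from 1.69 to 1.75. Peaks with a low wild-type value can have been called in catalytic-dead cells only, and what this adds to the rises in the lowest class was not tested. In each of the 5 classes the median log2 ratio of the H3K4me3-free proximal peaks was above that of the distal peaks, by 0.20 to 0.44.

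Turning to position, the H3K4me3-free proximal peaks were as wide as distal ones, with a median of 1326.5 bp against 1332 bp, but lay nearer to H3K4me3. The median gap to the nearest H3K4me3 peak was 6561.5 bp, against 10736 bp for distal peaks without H3K4me3, and 15.3% lay within 1 kb, against 6.52%. Only 2 peaks abutted an H3K4me3 peak with a gap of 0. At H3K4me3-free proximal peaks the median log2 ratio was -0.45 (-0.62 to -0.35, n = 337) under 500 bp from H3K4me3, -0.82 (-0.86 to -0.76, n = 1316) between 10 and 50 kb, and -1.09 (-1.29 to -0.87, n = 278) at 50 kb or more. The share called decreased was 31.2% in the nearest class and 52.9% in the farthest, and the share called increased was 9.20% and 7.91%, with 2.82% to 5.03% in the classes between.

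Distal peaks without H3K4me3 were lower at every distance. Their median log2 ratio was -0.68 under 500 bp, -1.07 between 10 and 50 kb and -1.58 at 50 kb or more. The H3K4me3-free proximal peaks exceeded them by 0.21 to 0.49 in the 7 distance classes, and by 0.27 when the classes were weighted by the number of proximal peaks. The shorter distance to H3K4me3 thus went with part of the 0.34 difference between the sets, and 0.27 of it was present at matched distance.

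**Figure D3:**
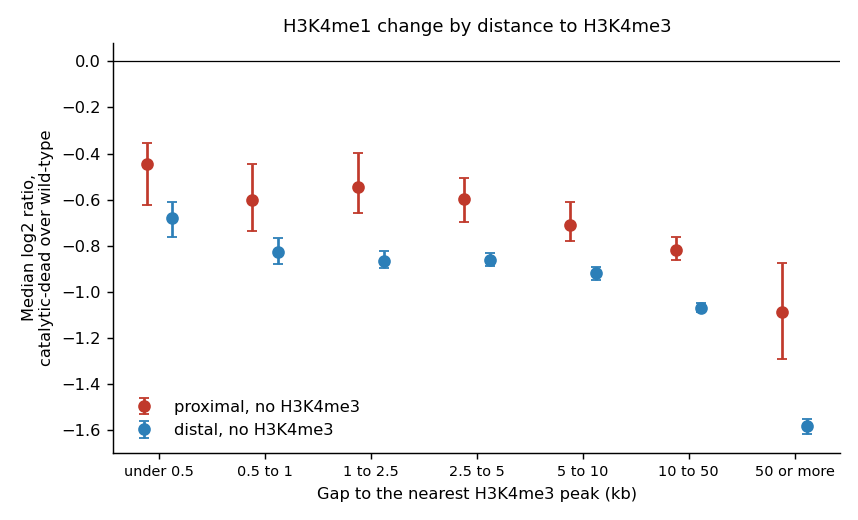
Median log2 ratio of H3K4me1, catalytic-dead over wild-type R1 cells, by the gap to the nearest H3K4me3 peak, for proximal (red) and distal (blue) peaks without H3K4me3. Bars are 95% intervals of the median over peaks. The proximal medians run from -0.45 under 0.5 kb to -1.09 at 50 kb or more and lie above the distal ones in each class.

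Where the nearest other H3K4me1 peak carried H3K4me3, its median log2 ratio was above 0. For 1192 of the H3K4me3-free proximal peaks, 29.0%, the nearest H3K4me1 peak was a proximal peak with H3K4me3, at a median gap of 973 bp. In these pairs the H3K4me3-free peak had a median fold enrichment of 2.04 in catalytic-dead cells and 2.87 in wild-type cells, and its neighbour had 4.50 in catalytic-dead cells and 2.78 in wild-type cells. The median log2 ratio was -0.56 at the H3K4me3-free peak and 0.77 at the neighbour. The H3K4me3-free peak had the lower ratio in 87.8% of pairs. In 664 pairs, 55.7%, the H3K4me3-free peak was below 0 and the neighbour above 0. In 91 of these pairs the H3K4me3-free peak was called decreased and the neighbour increased. Over the whole sets, 37.7% of H3K4me3-free proximal peaks were called decreased and 76.1% were below 0. Of proximal peaks with H3K4me3, 43.8% were called increased and 7.46% were below 0. With these shares some such pairs would occur even between unlinked peaks, and how many was not computed. Within the pairs the log2 ratios had a positive rho of 0.32. For another 661 peaks the nearest one was a distal peak with H3K4me3, with medians of -0.60 at the H3K4me3-free peak and 0.27 at the neighbour. Here the H3K4me3-free peak was below 0 and the neighbour above 0 in 40.2% (29.5% within a gap of 1 kb).

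Where the neighbour was another peak without H3K4me3, the medians of both peaks were below 0. Pair by pair, the log2 ratios had a rho of 0.32 with a distal neighbour without H3K4me3. The rho was 0.53 with another H3K4me3-free proximal peak. With a neighbour that carried H3K4me3 the rho was 0.32 for proximal and 0.31 for distal neighbours. The nearest peak was a distal one without H3K4me3 for 1431 of the H3K4me3-free proximal peaks, with medians of -0.81 at the proximal peak and -0.96 at the neighbour. The nearest peak was another H3K4me3-free proximal peak in 828 cases, with medians of -0.79 and -0.81. Peaks that are each other's nearest enter these 828 cases from both sides, so near-equal medians here are no finding. The first peak was below 0 and its neighbour above 0 in 9.01% and 10.7% of these pairs. Cases with the reverse signs were not counted, so these shares do not cover all cases of opposite sign. Among the 828 cases, a pair of each other's nearest peaks is seen from both sides and so is covered. Within a gap of 1 kb the pairs with a proximal H3K4me3 peak still stood apart: the medians were -0.48 at the H3K4me3-free peak and 0.70 at the neighbour in 605 pairs, although the log2 ratios within these pairs had a rho of 0.50 (the points share libraries and can share fragments).

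As examples of such a change over a short distance, chosen after their values were seen, 2 pairs are given. On chromosome 11 the H3K4me3-free peak from 58978815 to 58979631 had a fold enrichment of 0.582 in catalytic-dead cells and 2.77 in wild-type cells. Its neighbour from 58977301 to 58978686, 129 bp away and with H3K4me3, had 5.75 in catalytic-dead cells and 2.67 in wild-type cells. The wild-type levels of this pair were nearly equal, and the catalytic-dead levels lay on opposite sides of them. On chromosome 2 the H3K4me3-free peak from 143690131 to 143690869 had 0.522 in catalytic-dead cells and 2.98 in wild-type cells, while its neighbour from 143687766 to 143689318, at a gap of 813 bp, had 5.57 in catalytic-dead cells and 2.37 in wild-type cells.

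Most H3K4me3-free proximal peaks stood alone. Joining peaks 5 kb or less apart gave 3595 loci, of which 3145 held 1 peak and 450 held 2 or more, and no locus held more than 5. The 2 loci with 5 peaks differed. On chromosome 5, from 121975576 to 121984695, all 5 peaks had a lower value in catalytic-dead cells, with log2 ratios from -1.40 to -0.61. On chromosome 10, from 127670781 to 127680725, the log2 ratios ran from -0.52 to 0.70, above 0 at 3 peaks and below 0 at 2.

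The lower H3K4me1 in catalytic-dead cells was seen on every chromosome with such peaks. The median log2 ratio of H3K4me3-free proximal peaks was below 0 on all 19 autosomes and on X, from -0.96 (-1.09 to -0.78, n = 85) on chromosome 13 to -0.45 (-0.84 to -0.17, n = 74) on chromosome 18. On each of these 20 chromosomes it lay above the median of distal peaks without H3K4me3, by 0.13 to 0.65, and below that of proximal peaks with H3K4me3. Chromosome X held only 29 of the peaks, with a median of -0.78 and an interval of -1.41 to 0.79, and 8 of the 29, 27.6%, were called increased, the highest share of any chromosome. The increased share was also highest on X at distal peaks without H3K4me3 (4.83%) and at proximal peaks with H3K4me3 (63.5%).

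**Figure D4:**
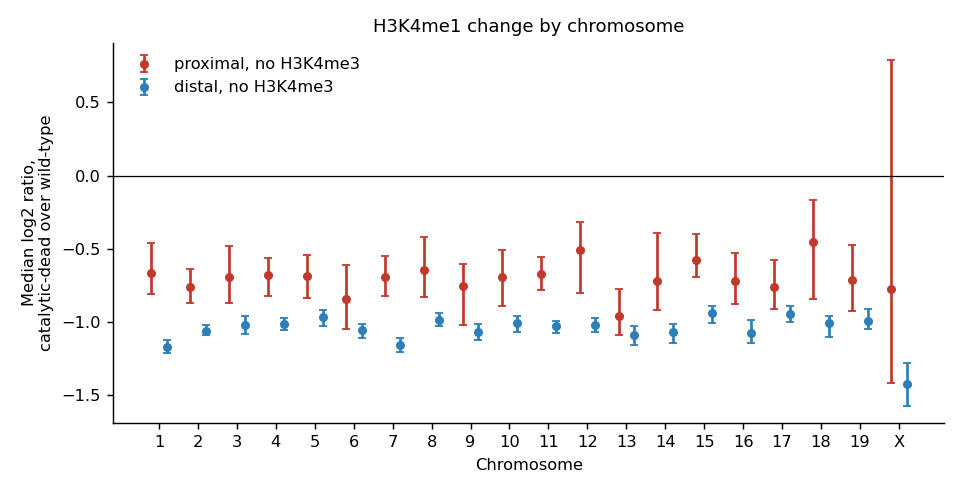
Median log2 ratio of H3K4me1, catalytic-dead over wild-type R1 cells, on each chromosome, for proximal (red) and distal (blue) peaks without H3K4me3, with 95% intervals over peaks. The proximal medians run from -0.96 on chromosome 13 to -0.45 on chromosome 18 and lie above the distal ones on all 20 chromosomes.

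H3K4me2, the next methylation state, was present at a minority of these peaks and was lower in catalytic-dead cells, like H3K4me1. Of the 4112 peaks 1592, 38.7% (37.2 to 40.2), overlapped an H3K4me2 peak, against 34.8% of distal peaks without H3K4me3 and 99.9% of proximal peaks with H3K4me3. The overlapped H3K4me2 peaks had a median fold enrichment of 2.37 in catalytic-dead cells and 3.55 in wild-type cells and a median log2 ratio of -0.61 (-0.68 to -0.56). Of the 1570 distinct H3K4me2 peaks among them 35.5% (33.2 to 37.9) were called decreased, against 23.0% of all H3K4me2 peaks, and 3.12% increased, against 1.91% of all H3K4me2 peaks. After quantile normalization of both lines, however, this H3K4me2 median was 0.055, so its direction rests on the scaling. At distal peaks without H3K4me3 the H3K4me2 median was -1.14 and at proximal peaks with H3K4me3 it was 0.21.

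The changes of both marks went together from peak to peak. Across the 1592 H3K4me3-free proximal peaks with H3K4me2, the log2 ratios of H3K4me1 and H3K4me2 had a rho of 0.84, a description of points that share cells and fragments. The fold enrichments of both marks had a rho of 0.79 in catalytic-dead cells and 0.25 in wild-type cells. Where H3K4me1 was called decreased, H3K4me2 was called decreased at 321 of 365 peaks, 87.9%, and at 246 of 1133 peaks, 21.7%, where H3K4me1 was in neither class. Where H3K4me1 was called increased, H3K4me2 was called increased at 34 of 94 peaks, 36.2%. The calls of the marks were opposite at 0 of 1592 peaks, which allows a share of up to 0.188% (3 counts). They were also opposite at 0 of 13992 distal peaks without H3K4me3 and 0 of 20547 proximal peaks with H3K4me3. The rho of the log2 ratios was 0.88 in this distal set and 0.54 in this proximal set. Where H3K4me1 was called decreased, H3K4me2 was called decreased at 94.4% and 67.8%. The agreement of the marks is thus not particular to H3K4me3-free proximal peaks.

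The H3K4me1 ratio was less negative where H3K4me2 was present. Peaks with H3K4me2 had a median H3K4me1 fold enrichment of 2.48 in catalytic-dead cells and 3.07 in wild-type cells, a median log2 ratio of -0.37 (-0.42 to -0.33), and 22.9% were called decreased. Peaks without H3K4me2 had 1.58 in catalytic-dead cells and 2.91 in wild-type cells, a median log2 ratio of -0.93 (-0.98 to -0.89), and 47.1% were called decreased. The 2 kinds were close in wild-type cells and apart in catalytic-dead cells. An H3K4me2 peak can have been called in either line, so its presence is not independent of the catalytic-dead level. Compared like with like, H3K4me3-free proximal peaks exceeded distal ones by 0.37 with H3K4me2 and by 0.28 without it.

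The deposited tables of 129/Ola cells list 67697 regions by their H3K4 marks and by lists of active and poised enhancers. Of the H3K4me3-free proximal peaks 2357, 57.3% (55.8 to 58.8), overlapped a listed region, against 54.3% of distal peaks without H3K4me3 and 90.3% of proximal peaks with H3K4me3. By the region they overlapped most, 745 peaks (18.1%) lay on active enhancers, 649 (15.8%) on poised enhancers, 379 (9.22%) on regions with H3K4me1 only in neither list, 558 (13.6%) on regions with both H3K4me1 and H3K4me3, 26 (0.632%) on regions with H3K4me3 only, and 1755 (42.7%) on no listed region. Of distal peaks without H3K4me3, 15.1% lay on active enhancers, 19.8% on poised enhancers, 13.1% on the other H3K4me1-only regions and 6.10% on regions with both marks. Active enhancers and regions with both marks thus took a larger share of the H3K4me3-free proximal peaks, and poised enhancers and the other H3K4me1-only regions a smaller one. On chromosome X 0 of 29 peaks lay on a listed region, which allows a share of up to 10.3%. Chromosome X also had the lowest share on a listed region in both other sets. It was 13.1% at distal peaks without H3K4me3 and 65.0% at proximal peaks with H3K4me3.

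The H3K4me1 ratios on active enhancers, poised enhancers and the other H3K4me1-only regions were close. The median log2 ratio was -0.78 (-0.85 to -0.71) on active enhancers, -0.80 (-0.89 to -0.70) on poised enhancers and -0.79 (-0.93 to -0.68) on the other H3K4me1-only regions, so these 3 intervals overlap. On regions with both marks in 129/Ola cells it was -0.35 (-0.40 to -0.25), with 20.1% called decreased, against 38.8% to 43.3% in the 3 H3K4me1-only classes. Fold enrichment on these regions was 2.45 in catalytic-dead cells and 2.95 in wild-type cells, so the wild-type level was close to that of the other classes. On no listed region the median was -0.75 (-0.83 to -0.69), with 40.8% called decreased and 8.26% called increased. At distal peaks without H3K4me3 the median on regions with both marks was -0.55, with 30.5% called decreased. In the 3 H3K4me1-only classes the distal medians ran from -1.06 to -0.995, with 49.8% to 52.5% called decreased. The less negative ratio on regions with both marks is thus not particular to H3K4me3-free proximal peaks.

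In 129/Ola cells 584 of the peaks, 14.2%, lay on a region with H3K4me3, although they overlap no H3K4me3 peak of R1 cells. For 141 of these the region reached into an H3K4me3 peak of R1 cells beyond the H3K4me1 peak itself, and for 443, or 75.9%, it did not. The 443 had a median fold enrichment of 2.55 in catalytic-dead cells and 2.95 in wild-type cells, and a median log2 ratio of -0.28, against -0.56 at the 141. The cell lines and the tools named for them differ as well, and these cannot be told apart here.

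The 191 peaks called increased are described without a test, because the class is defined by the ratio. Their median fold enrichment was 3.86 in catalytic-dead cells and 1.59 in wild-type cells, and the wild-type value lies below that of the peaks called decreased, 3.13. Their median width was 927 bp, against 1309 bp for the peaks called decreased. Of the 191, 145 (75.9%) lay on no listed 129/Ola region, against 46.1% of the decreased peaks and 37.7% of those in neither class, and 94 (49.2%) overlapped H3K4me2, against 23.5% of the decreased peaks and 47.8% of those in neither class. The 851 increased distal peaks without H3K4me3 were alike, with medians of 3.60 in catalytic-dead cells, 1.54 in wild-type cells and 907 bp in width. Of these 81.0% lay on no listed region, against 48.7% of the decreased distal peaks and 40.8% of those in neither class. These traits are thus not particular to H3K4me3-free proximal peaks.

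Proteins mapped in 129/Ola cells were listed at more of these places than at distal ones. The shares that follow are taken over placed peaks, those that overlap a listed 129/Ola region, which are 2357 of the 4112 H3K4me3-free proximal peaks and 21796 of the 40169 distal peaks without H3K4me3. The mean number of the 17 proteins listed at the region was 4.94 ± 3.93 (SD over placed peaks) at proximal peaks, against 3.66 ± 3.52 at distal ones. At least 10 proteins were listed at 15.1% of these peaks, against 8.25%, and none at 15.1%, against 21.7%. All 17 shares were higher at placed proximal peaks than at placed distal ones, by 7.55 ± 3.84 percentage points (mean ± SD over proteins), though the values share regions and the intervals for WSTF overlap. The mean number was higher on each of the 19 autosomes, by 0.13 to 2.04. At the 18563 placed proximal peaks with H3K4me3 the mean number was 8.46 ± 4.34. There 16 of the 17 proteins were listed more often than at placed H3K4me3-free proximal peaks, with BAZ1A as the exception (23.6% against 23.7%). The listed regions had a median width of 960 bp at H3K4me3-free proximal peaks, 869 bp at distal peaks without H3K4me3 and 1920 bp at proximal peaks with H3K4me3. The lowest listed log2 enrichment is 0.585, so a protein that is not listed was under this level or was not measured.

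Among the remodellers, SNF2H, the ISWI ATPase that spaces nucleosomes, was listed at 40.1% (38.1 to 42.0) of placed proximal peaks and 29.1% (28.5 to 29.7) of placed distal peaks, which is 23.0% of all H3K4me3-free proximal peaks and 15.8% of all distal ones. Its partner BAZ1A (ACF1) was listed at 23.7% and 16.9%, and its other partner WSTF (BAZ1B) at 7.98% (6.95 to 9.14) and 7.76% (7.41 to 8.12). WSTF was thus the protein whose share differed least. BRG1, the ATPase of the BAF complex, was listed at 15.8% and 13.6%, and the BAF core subunit BAF155 at 18.3% and 13.4%. RUVBL1 and RUVBL2, paired ATPases of the INO80 and TIP60 complexes, were listed at 22.9% and 26.6% of placed proximal peaks, against 16.7% and 19.6% of placed distal peaks.

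The largest differences belonged to PHRF1 and SSRP1. PHRF1, a protein with PHD and RING fingers, was listed at 41.4% (39.4 to 43.4) of placed proximal peaks and 26.9% (26.4 to 27.5) of placed distal peaks. SSRP1, part of the histone chaperone FACT, was listed at 40.0% and 25.9%, from 1 library. SRSF2, a splicing factor with an RS domain, was the most often listed protein, at 54.3% and 43.0%, and its relative SRSF1 was at 37.0% and 28.5%. SAP18, a Sin3-associated protein that is also part of splicing complexes, was at 36.1% and 25.9%, and PHF5A, a subunit of the SF3B complex, at 19.6% and 14.5%.

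The Mediator subunits MED1, MED12 and SUR2 (MED23) bridge enhancers and RNA polymerase II. They were listed at 28.8%, 20.4% and 29.4% of placed proximal peaks and at 20.9%, 16.4% and 21.3% of placed distal peaks. The cohesin subunit SMC3 was at 32.2% and 25.9%. H3K27ac, the acetylation of active enhancers and promoters, was listed at 69.0% (67.1 to 70.9) of placed proximal peaks without H3K4me3, 54.6% of placed distal peaks without H3K4me3 and 89.9% of placed proximal peaks with H3K4me3. Over all peaks, placed or not, this is 39.6% of the H3K4me3-free proximal peaks and 29.6% of the distal ones. Where it was listed, its median log2 enrichment was 1.26 at H3K4me3-free proximal and 1.21 at distal peaks.

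**Figure D5:**
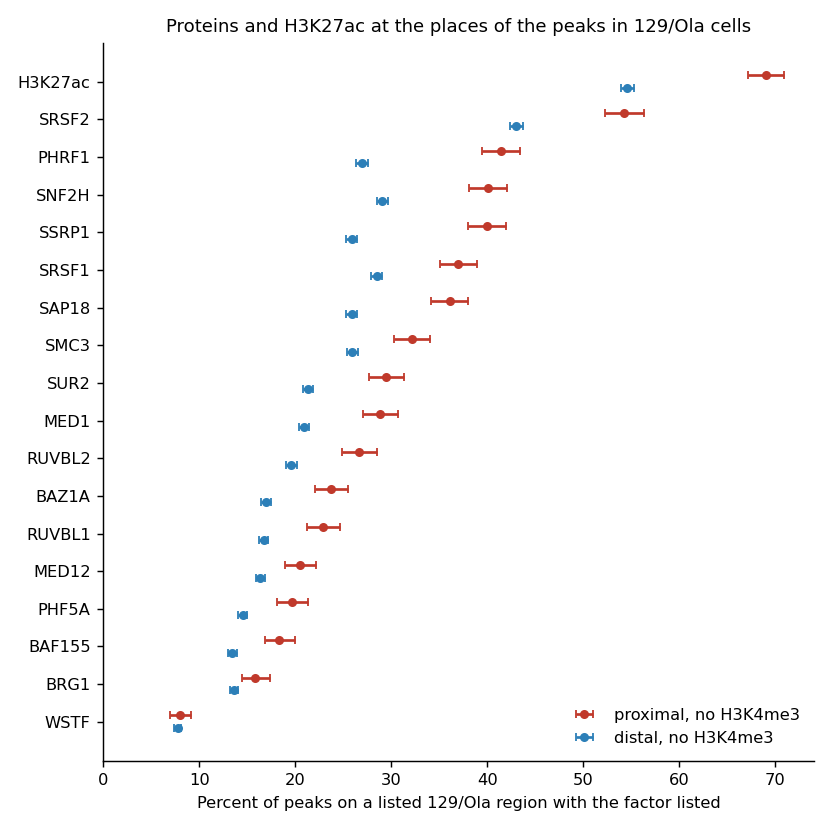
Percent of peaks on a listed 129/Ola region at which each protein, or H3K27ac, is listed, for proximal (red, 2357 peaks) and distal (blue, 21796 peaks) peaks without H3K4me3, with 95% Wilson intervals over peaks. H3K27ac has the highest share, 69.0% at proximal and 54.6% at distal peaks, and WSTF the lowest, 7.98% and 7.76%.

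Within each class of region the mean difference was smaller than the 7.55 points over all placed peaks. On active enhancers alone 13 of the 17 proteins were listed more often at H3K4me3-free proximal than at distal peaks, by a mean of 3.40 points, on poised enhancers 12 of 17, by 1.87 points, and on regions with both marks 9 of 17, by 0.63 points. On the other H3K4me1-only regions 90.8% of the H3K4me3-free proximal peaks had no protein listed, and 12 of the 17 proteins were listed at none of the proximal and none of the distal peaks. Of the other 5, SSRP1 was higher at proximal peaks and 4 were lower. Only 4 of 745 peaks on active enhancers had none of the 17, and 0 of 649 on poised enhancers, which allows up to 0.462%. Distal peaks were split alike. No protein was listed at 11 of 6067 on active enhancers, 13 of 7943 on poised enhancers and 88.4% on the other H3K4me1-only regions. The split can belong to how the lists were made, so it is no finding about these peaks. Within active enhancers PHRF1 was listed at 50.5% of H3K4me3-free proximal and 41.5% of distal peaks and SSRP1 at 54.2% and 40.8%. BAF155, at 20.1% and 20.4%, was not above the distal share there. The listed regions differed in median width between proximal and distal peaks. The widths were 1175 and 937 bp on active enhancers, 693 and 573 bp on poised enhancers, and 626.5 and 495 bp with both marks. On the other H3K4me1-only regions they were 1486 and 1523.5 bp. What region width adds to the shares was not tested.

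Places with more proteins in 129/Ola cells had a less negative H3K4me1 ratio in R1 cells. Among H3K4me3-free proximal peaks the median log2 ratio was -0.78 (-0.91 to -0.68, n = 356) with no protein listed, -0.83 (-0.90 to -0.76, n = 841) with 1 to 4, -0.58 (-0.68 to -0.52, n = 803) with 5 to 9 and -0.40 (-0.50 to -0.28, n = 357) with 10 to 17. The share called decreased was 42.7%, 41.4%, 31.4% and 23.5% in these classes. The catalytic-dead medians were 1.80, 1.84, 2.11 and 2.34, while the wild-type medians were 3.08, 3.10, 3.06 and 2.98, and the number of proteins also goes with regions that carry both marks. The medians with no protein and with 1 to 4 have overlapping intervals. At distal peaks the medians were -1.06, -1.01, -0.93 and -0.73.

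Among placed H3K4me3-free proximal peaks, the log2 ratio was less negative where the protein was listed for 16 of the 17. WSTF was the exception (-0.69 where listed and -0.67 where not). For SMC3 the median was -0.41 where listed and -0.81 where not, the widest gap, and for BAZ1A it was -0.40 and -0.75. For BRG1 the medians were closer, -0.58 where listed and -0.68 where not. With H3K27ac listed the median was -0.63, and without it -0.78. Within H3K27ac there was no clear order by strength, with -0.60 (-0.72 to -0.47) below a log2 enrichment of 1 and -0.64 (-0.71 to -0.58) at 1 or above. At placed distal peaks without H3K4me3 the ratio was less negative where the protein was listed for 15 of the 17. SMC3 had the widest gap there too, with -0.77 where listed and -1.05 where not.

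Individual peaks show the range. Among the H3K4me3-free proximal peaks with the higher mean level over both lines, above 2.49, the lowest ratio was at chromosome 7 from 149415793 to 149417561, with a fold enrichment of 0.636 in catalytic-dead cells and 4.70 in wild-type cells, a log2 ratio of -2.89. H3K4me2 there was 0.350 in catalytic-dead cells and 4.07 in wild-type cells. In 129/Ola cells this place carries H3K4me1 and H3K27ac and none of the 17 proteins, and the nearest H3K4me3 peak is 51574 bp away. The next 4 lie on active enhancers of 129/Ola cells. On chromosome 4, the peak from 137259836 to 137261548 had 0.696 in catalytic-dead cells and 4.66 in wild-type cells and lists PHF5A, PHRF1 and SRSF2. The peak on chromosome 2 from 105316152 to 105317090, with 10 proteins listed, had 0.865 in catalytic-dead cells and 4.48 in wild-type cells, and that on chromosome 18 from 34253051 to 34254774, with the strongest H3K27ac of the 5 (log2 2.77), had 0.761 and 4.34.

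At the other end, and again among peaks with a mean level above 2.49, the 5 highest ratios all lay on no listed 129/Ola region. On chromosome 6 from 145564126 to 145565047 the fold enrichment was 4.39 in catalytic-dead cells and 0.943 in wild-type cells, a log2 ratio of 2.22. On chromosome 13 from 77271460 to 77272175 it was 5.95 in catalytic-dead cells and 1.36 in wild-type cells, 880 bp from an H3K4me3 peak. On chromosome 3 from 54615113 to 54615681 it was 6.00 in catalytic-dead cells and 1.43 in wild-type cells, and H3K4me2 was 5.58 in catalytic-dead cells and 1.34 in wild-type cells. H3K4me2 peaks were present at 3 of the 5 places, each higher in catalytic-dead cells.

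The 5 peaks with the highest wild-type level had log2 ratios from -1.65 to -1.12, and the 5 with the highest catalytic-dead level had log2 ratios from 1.09 to 2.13. Each choice used 1 of the values in the ratio, so these directions are no finding. The highest wild-type level, on chromosome 4 from 41610279 to 41613123, an active enhancer of 129/Ola cells, had 2.59 in catalytic-dead cells and 5.61 in wild-type cells. The next, on chromosome 14 from 70568909 to 70571957, had 1.68 in catalytic-dead cells and 5.27 in wild-type cells, and its H3K4me2 was 0.864 and 4.40. This place also had the highest H3K27ac of all these peaks in 129/Ola cells, a log2 enrichment of 3.34, with 10 proteins listed on a region with both marks. The low catalytic-dead value at this place runs against the order by number of proteins described above.

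The median H3K4me1 ratio differed little with width, and narrow peaks were called increased more often. The widest peak, 14384 bp on chromosome 4 from 137316952 to 137331336, had 3.18 in catalytic-dead cells and 3.98 in wild-type cells, and the next, 8669 bp on chromosome 2 from 166475639 to 166484308, had 1.29 and 3.75. Over 5 width classes the median log2 ratio of H3K4me3-free proximal peaks stayed between -0.76 and -0.58. The share called increased was 9.65% in the narrowest class and 1.65% in the widest. The share with H3K4me2 was 23.0% in the narrowest class and 63.5% in the widest, and the share on a listed region 34.9% and 86.6%. A wide peak meets the overlap rule of 1 bp more readily, and what this adds was not tested. Distal peaks without H3K4me3 ran alike, from 19.0% to 60.9% with H3K4me2 and from 30.2% to 82.4% on a listed region. Their increased share was 4.84% in the narrowest class and 0.657% in the widest.

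The 5 peaks with the most proteins listed had log2 ratios from -1.04 to 0.30. With 16 of the 17 listed, the active enhancer on chromosome 17 from 35388823 to 35391725 had 2.59 in catalytic-dead cells and 2.60 in wild-type cells, and the region on chromosome 11 from 72265645 to 72267842 had 3.14 in catalytic-dead cells and 2.55 in wild-type cells. With 15 listed, the peak on chromosome 15 from 101199020 to 101201582 had 1.86 in catalytic-dead cells and 3.82 in wild-type cells, that on chromosome 10 from 60771420 to 60772603 had 2.21 in catalytic-dead cells and 3.796 in wild-type cells, and that on chromosome 11 from 100517331 to 100519250 had 4.02 in catalytic-dead cells and 3.72 in wild-type cells. The 5 places thus included higher, level and lower values.

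At the limit of the choice, the 5 H3K4me3-free proximal peaks nearest to H3K4me3, at gaps of 0 to 8 bp, had log2 ratios from -1.24 to 0.34. The 5 proximal peaks just outside, which shared 3 to 11 bp with an H3K4me3 peak, had log2 ratios from -1.04 to 0.99. These ranges overlap, and leaving out every peak within 1 kb of H3K4me3 gave a median of -0.73 for the H3K4me3-free proximal peaks.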

How the data were processed

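The authors deposited peak tables of H3K4me1, H3K4me2 and H3K4me3 with 1 fold (ratio) enrichment per line, marked FE in the file headers, and region tables of 129/Ola cells with a deposited log2 enrichment per protein. The sources used here do not say what these are relative to or whether libraries were pooled. The header name r1 was read as wild-type R1. Per the submitters' processing notes the build was mm9. They name BWA 0.7.13-r1126 with Picard 2.11.0, MACS2 in version 2.1.0.20150731 and deepTools 2.5.1 and 2.5.3 for the R1 libraries, and Bowtie, Picard and MACS2 for the 129/Ola libraries.

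The table rows follow the chromosomes in text order and the fold enrichments in number order, so the values were realigned. Over these peaks outside chromosomes 1, X and Y, where both orders coincide, the rho of width with the wild-type value was 0.32 after this step and 0.012 before it, and over the 227 peaks on chromosomes 1, X and Y it was 0.23. Log2 ratios were taken without a pseudocount. Overlap meant 1 bp or more, and a peak took the values of the region or H3K4me2 peak it overlapped most. Of the protein and mark names 20 were used, and 11 that matched no 129/Ola library were not. The calculations were tested on simulated data and run in Python 3.11.15 with pandas 2.3.3, numpy 2.4.6 and scipy 1.17.1.

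Named peaks are the 5 with the largest fall, rise, level in either line, width, number of proteins and H3K27ac, and the 5 nearest to either side of the H3K4me3 limit, with falls and rises taken from peaks whose average level exceeded the middle value, 2.49. No mm9 annotation was used, so peaks carry neither gene names nor sequence. The peaks, classes and comparisons were chosen with earlier results of these data known. Alternatives comprised the deposited order, 2 scalings, a pseudocount, filters, other folds, stricter overlaps and matched classes.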

Additional observations from a re-analysis of the deposited data

How the results depend on the processing

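No paired analysis was possible because the tables hold 1 value per line, and leaving out each replicate could not be run for the same reason. Of 54 values recomputed under alternatives, 18 stayed within the 95% interval of the reported value, or for a count within 1.5 times it, 35 moved beyond that and 1 reversed.

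With the values in the deposited order, 639 peaks were called increased, the median log2 ratio was -0.21, the difference from distal peaks 0.086 and the H3K4me2 median -0.11. That order pairs most peaks with values of others if the restored order is right. On chromosomes 1, X and Y alone, which hold few of the peaks, 80 were called decreased and 21 increased, with a difference of 0.52 and an H3K4me2 median of -0.53. Centring on the median of all peaks gave 323 increased, a median of -0.49 and an H3K4me2 median of -0.48. Quantile normalization gave 763 decreased and 461 increased, a median of -0.40, a difference of 0.25 and a reversed H3K4me2 median of 0.055. A pseudocount of 1 gave 732 decreased, 50 increased, a median of -0.49, a difference of 0.22 and an H3K4me2 median of -0.46. Without the lowest 25% of peaks 439 were decreased, the median was -0.30, the difference 0.22 and the H3K4me2 median -0.13.

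A fold of 1.5 gave 487 increased, and a fold of 3 gave 691 decreased and 29 increased. Asking for overlap of at least 50% of the H3K4me1 peak, 24.6% had H3K4me2 (median -0.51), 27.02% lay on a listed region and the mean number of proteins was 4.48. Counting only proteins at a log2 enrichment of 1 or more, it was 1.94. The difference from distal peaks was 0.28 among peaks without H3K4me2, 0.27 within distance classes and 0.29 within region classes, both of the last chosen after the data were seen. Over all 13 alternatives it lay between 0.086 and 0.52, above 0 in each. The cause of the movements was not tested.

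Since each line has 1 value and no stated depth, no difference here was tested against replicate error. A global change in efficiency of the immunoprecipitation and a global change of the mark cannot be told apart, and the shift of all peaks is -0.21 for H3K4me1 and -0.13 for H3K4me2. The lines used for the 129/Ola and R1 tables differ.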
